A study of Elaeis oleifera with 12 samples.

Results

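Xyloglucan endotransglucosylase/hydrolases (XTHs) were examined in the abscission zone (AZ) at the fruit base of the American oil palm, Elaeis oleifera. The members are all loci whose deposited description contains "xyloglucan endotransglucosylase", which gave 39 of 29040 loci. The number in a member's name (XTH22, XTH23) is the name given to it in its description, and most of these numbers refer to the Arabidopsis protein it resembles. Of the 39 members, 8 were named XTH23 and 5 were named XTH22, and the 39 loci carried 19 different names.

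Xyloglucan is a hemicellulose that coats and tethers cellulose microfibrils in the primary cell wall. XTHs are secreted enzymes that cut a xyloglucan chain and either join the new end to another xyloglucan chain or, in some members, release it to water. They are known for wall remodelling in growing tissue, in ripening fruit and at sites of cell separation. In Arabidopsis, XTH22 is the product of the touch-induced gene TCH4, and XTH23 is a close relative of it.

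RNA came from 2 palms of the same progeny, the non-shedding individual 26-11 (NSd) and individual 28-7, which sheds its ripe fruit (Sd). The groups are ripe NSd (replicates 4 to 6), ripe Sd (replicates 10 to 12), pre-ripe (PR) NSd (replicates 1 to 3) and PR Sd (replicates 7 to 9). Ripe bunches were the lowest in the whorl and bore orange fruit, and PR bunches sat just above them. Each sample pooled about 50 AZ pieces, about 3 g of tissue, and the 3 samples of a group came from 1 bunch of 1 palm. The spread behind every p-value is thus that of repeated sampling within a bunch. With 1 palm for each phenotype, the palm and the phenotype cannot be told apart, and neither can the stage and the bunch.

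Values are RPKM, which scale the reads of a locus to the length of its transcript and to the size of the library, so that levels can be compared between loci. Aligned reads per library ranged from 19090375 to 34004517. Reads on rRNA loci took at least 12.1% to 22.4% of the reads in PR NSd, against 1.21% to 13.4% in the other groups, and the median log2 difference over all loci tested was -0.35 between PR NSd and PR Sd. Differences are given on the scale of log2(RPKM + 1), which understates the change of low loci. In the limma fit, which took the 20495 loci with 1 RPKM or more in any library, a call needed an adjusted p below 0.01 together with a log2 difference past 1 in either direction.

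The family was carried by a few loci. Of the 39 members, 27 reached 1 RPKM and were tested, 9 were detected at no more than 0.81 RPKM, and 3 (LOC105035212, LOC105048389 and LOC105058179, named XTH32, XTH26 and XTH10) had 0 in all 12 libraries. Only 5 members had a group mean of at least 100 RPKM, and all 5 are named XTH23 or XTH22. A further 5 members had a highest group mean between 20 and 100 RPKM, and 29 stayed below 20 RPKM.

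Summed over the 39 members, the level was 2099, 3998 and 4191 RPKM in ripe NSd, 502, 451 and 242 RPKM in ripe Sd, 3711, 4072 and 1908 RPKM in PR NSd and 3326, 1756 and 953 RPKM in PR Sd. The 3 ripe Sd libraries were the lowest of the 12, and the other 9 libraries overlapped across groups. The sum was 3.11 higher on the log2 scale in ripe NSd than in ripe Sd and differed by -2.22 between ripe Sd and PR Sd. The two-sided exact permutation test of 3 libraries against 3 gave p = 0.10 for both differences, the smallest it can give. Between the PR palms the sum was 0.79 higher in NSd (exact permutation p = 0.20), and between the NSd stages it differed by 0.10 (exact permutation p = 0.60), a difference that changed sign when RPKM were rescaled or when any of replicates 3, 5 and 6 was left out.

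**Figure D1:**
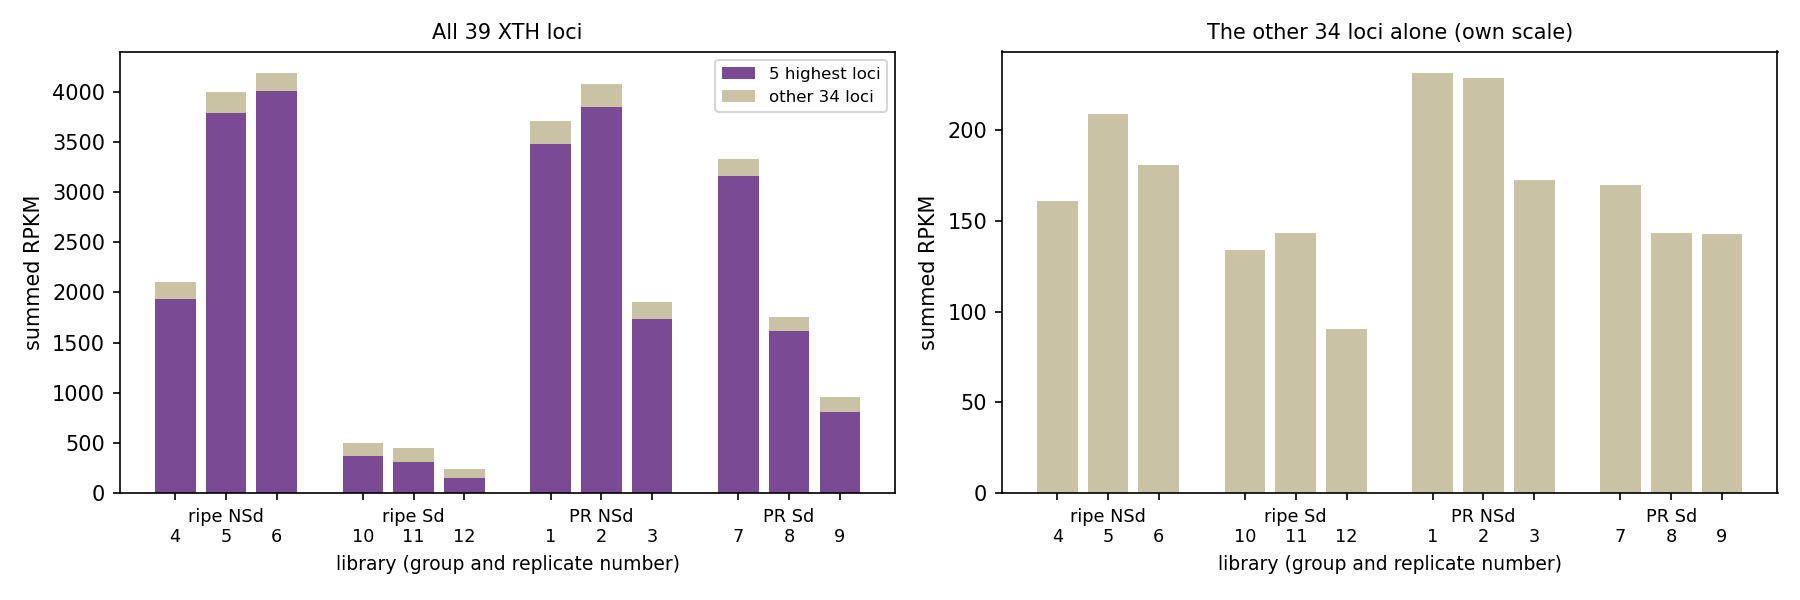
Summed RPKM of the XTH loci in each library, by group and replicate number, with the 5 highest loci and the other 34 loci stacked on the left and the other 34 loci alone on their own scale on the right. The 3 ripe Sd libraries, at 242 to 502 RPKM, lie below all others, and the other 34 loci span only 90.6 to 232 RPKM.

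The 5 highest loci took 94.3% ± 1.7 of the family sum in ripe NSd, 68.0% ± 5.4 in ripe Sd, 93.0% ± 1.8 in PR NSd and 90.6% ± 5.0 in PR Sd (SD, n = 3 each). Without them, the sum of the other 34 members was 184 ± 24.2 RPKM in ripe NSd and 123 ± 28.0 RPKM in ripe Sd, and 211 ± 33.4 RPKM in PR NSd and 152 ± 15.5 RPKM in PR Sd (SD, n = 3 each). That remainder was 0.60 higher on the log2 scale between the ripe palms and 0.47 higher between the PR palms in NSd, both with exact permutation p = 0.10, the smallest possible. The 5 loci taken out are those that the study named from a screen of these libraries, so a smaller difference in the remainder between the ripe palms follows from that choice.

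The study named these 5 loci from a screen of the same libraries, so their direction between the ripe palms and between the Sd stages is not independent evidence. Each library's values follow, with the levels in the order of the highest group mean.

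LOC105049227, named XTH23, had 995, 1609 and 1958 RPKM in ripe NSd, 146, 115 and 59.0 RPKM in ripe Sd, 1329, 1538 and 765 RPKM in PR NSd and 1598, 710.3 and 309 RPKM in PR Sd. Every ripe Sd library was below every other library at this locus, and the other 3 groups overlapped. LOC105049189, a second XTH23, had 705, 1522 and 1467 RPKM in ripe NSd, 158, 137 and 64.3 RPKM in ripe Sd, 1355, 1535 and 660.3 RPKM in PR NSd and 1060.5, 588 and 322 RPKM in PR Sd. Again the ripe Sd libraries alone stood apart. These loci together held 78.3% to 81.7% of the family sum in ripe NSd and 51.0% to 60.6% in ripe Sd. Compared within each library, LOC105049227 was above LOC105049189 in all 3 ripe NSd libraries and below it in all 3 ripe Sd libraries. In PR NSd and in PR Sd their order differed between libraries. No single order of the loci thus held across groups, and their ranges overlapped in every group. The recovered transcript length of LOC105049227 is 659 bases, against 1163 bases for LOC105049189, and its RPKM rest on 871 to 35820 reads per library. LOC105049189 had more reads than LOC105049227 in all 12 libraries, and the place of LOC105049227 at the top in RPKM rests on that shorter length. Whether LOC105049227 is a partial transcript model was not checked. With the same reads, a longer transcript would lower its RPKM and the family sum and would leave the ratios of its RPKM between groups as they are. A longer model could also take in further reads, so its effect on the level and rank of this locus is not known.

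The next 3 loci were several times lower. LOC105049188 (XTH23) had 79.0, 219.8 and 225 RPKM in ripe NSd, 23.3, 15.4 and 7.72 RPKM in ripe Sd, 281, 282 and 114 RPKM in PR NSd and 123, 83.5 and 49.2 RPKM in PR Sd. LOC105050826 (XTH22) had 75.9, 190.2 and 192 RPKM in ripe NSd, 20.7, 22.4 and 12.3 RPKM in ripe Sd, 284, 257 and 115 RPKM in PR NSd and 197, 113 and 67.9 RPKM in PR Sd. LOC105037481 (XTH23) had 82.9, 248 and 168 RPKM in ripe NSd, 20.2, 18.8 and 7.86 RPKM in ripe Sd, 229, 231 and 81.4 RPKM in PR NSd and 177, 118 and 62.6 RPKM in PR Sd. All 3 showed the same layout, with ripe Sd alone at the bottom and the other groups overlapping, and their levels overlapped with each other in each of the 4 groups. All 3 lay below LOC105049227 and LOC105049189 in every library.

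**Figure D2:**
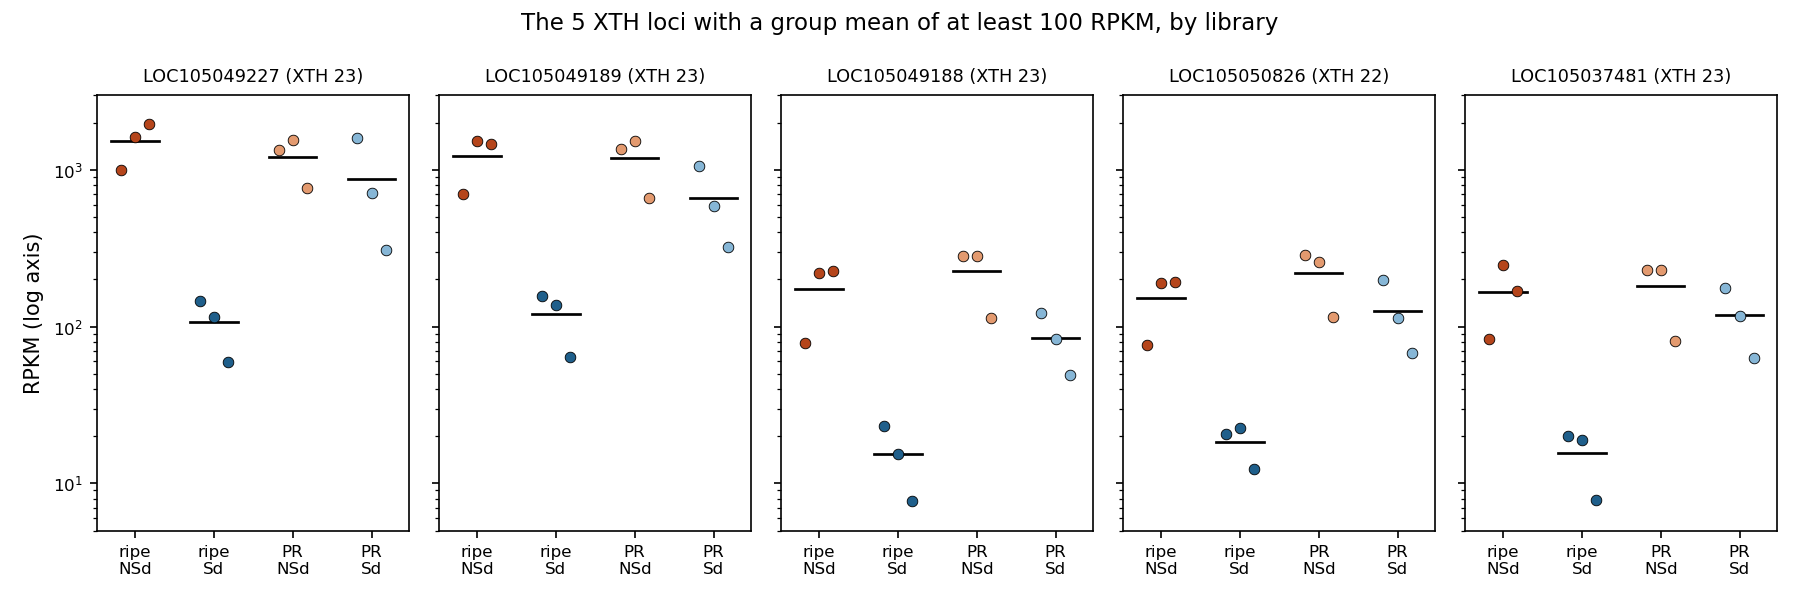
RPKM on a log axis at the 5 XTH loci with a group mean of at least 100 RPKM, one point per library and a bar at the mean of each group of 3. At LOC105049227 the ripe NSd libraries lie at 995 to 1958 RPKM and the ripe Sd libraries at 59.0 to 146 RPKM, and the other 4 loci have the same layout.

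Within each group the 5 loci followed the same libraries. Replicate 4 was the lowest of the ripe NSd libraries at all 5 loci, replicate 12 the lowest of ripe Sd, replicate 3 the lowest of PR NSd and replicate 9 the lowest of PR Sd. In PR Sd the order was replicate 7, then 8, then 9 at each of the 5 loci, with the highest library 2.49 to 5.18 times the lowest. PR Sd was thus the most spread group at LOC105049227, LOC105049189 and LOC105050826, and of the 9 libraries outside ripe Sd its replicate 9 lay nearest to ripe Sd at all 5.

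Between the ripe palms, the comparison asks which transcripts differ when normal fruit is ready to detach. All 5 highest loci rose in ripe NSd relative to ripe Sd, and no member fell. LOC105049227 averaged 1521 ± 487 RPKM in ripe NSd and 107 ± 44.2 RPKM in ripe Sd (SD, n = 3 each), 14.2-fold by means, with a log2 difference of 3.86 ± 0.53 (SE, adjusted p = 0.0016). LOC105049189 averaged 1231 ± 457 RPKM in ripe NSd and 119 ± 48.9 RPKM in ripe Sd, with a log2 difference of 3.37 ± 0.49 (adjusted p = 0.0020). The log2 differences were 3.39 ± 0.51 at LOC105049188 (adjusted p = 0.0026), 3.30 ± 0.53 at LOC105037481 (adjusted p = 0.0033) and 2.90 ± 0.47 at LOC105050826 (adjusted p = 0.0033). The 95% intervals of the 5 differences overlapped. Of all loci tested, 2.44% were called in this comparison, 0.815% higher and 1.63% lower in NSd, against 5 of the 27 members higher and 0 lower. At an unadjusted p under 0.05 in limma, 12 of the 27 members were higher and 1 was lower, against 10.3% and 18% of all loci tested. The median difference over the 27 members was 0.61, and that over all loci tested was -0.06. In 12 of the 27 members every ripe NSd library was above every ripe Sd library, and in 1 every one was below. Over all loci tested these shares were 11.6% and 20%.

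In several lower members every ripe NSd library was also above every ripe Sd library, without the difference passing the thresholds. LOC105049190, another XTH23, had 4.23, 13.0 and 15.7 RPKM in ripe NSd and 3.12, 3.24 and 0.971 RPKM in ripe Sd, a log2 difference of 1.72 ± 0.46 (adjusted p = 0.032). In PR NSd it had 8.20, 6.96 and 3.04 RPKM, and in PR Sd 11.4, 6.27 and 7.42 RPKM. Its PR NSd replicate 3 lay below ripe Sd replicates 10 and 11, so ripe Sd did not stand apart from all other libraries. LOC105049190 was chosen for mention after its values were seen. LOC105043948, an XTH30 and the most abundant member outside the XTH22 and XTH23 names, had 32.8, 63.2 and 52.1 RPKM in ripe NSd, 24.4, 25.7 and 15.1 RPKM in ripe Sd, 63.1, 44.3 and 27.4 RPKM in PR NSd and 56.3, 40.3 and 29.0 RPKM in PR Sd. At LOC105043948 the ripe Sd libraries were below all others, with a log2 difference of 1.13 ± 0.34 between the ripe palms (adjusted p = 0.050).

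The size of the difference at the 5 loci did not hang on a single library, but the calls did. Over all alternatives run, leaving out each library in turn included, the log2 difference was 3.49 to 4.14 at LOC105049227, which stayed called throughout, and 2.65 to 3.88 at the other 4. The number of members called higher was 1 without ripe NSd replicate 5, 2 without ripe NSd replicate 6, 2 without ripe Sd replicate 11 and 1 without ripe Sd replicate 12, with adjusted p of 0.012 to 0.020 at the loci that lost their call. The number called over all loci also fell in these fits, to 155, 285, 137 and 133 of the 501. In a fit that summed members with the same name, XTH23 was 3.60 ± 0.50 higher in ripe NSd (adjusted p = 0.0018), and XTH22 was 1.76 ± 0.38 higher (adjusted p = 0.014), not a call. Reads shared by near-identical members may have been placed on either copy, and reads exchanged between members of the same name stay in the sum of that name.

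Between the Sd stages, the comparison asks what changes as fruit of the shedding palm becomes ready to detach. Of the 27 members, 1 fell in ripe Sd relative to PR Sd and 0 rose, against 1.09% of all loci called (0.429% lower and 0.659% higher). The member was LOC105050826 (XTH22), at 18.5 ± 5.42 RPKM in ripe Sd and 126 ± 65.6 RPKM in PR Sd (SD, n = 3 each), with a log2 difference of -2.62 ± 0.47 (adjusted p = 0.0086). The other 4 high loci had differences of like size that missed the adjusted threshold. These were -2.81 ± 0.53 at LOC105049227 (adjusted p = 0.011), -2.83 ± 0.53 at LOC105037481 (adjusted p = 0.011), -2.38 ± 0.49 at LOC105049189 (adjusted p = 0.015) and -2.41 ± 0.51 at LOC105049188 (adjusted p = 0.018). The study's screen used DESeq on counts at the same thresholds. It required a call between the Sd stages as well as between the ripe palms, and all 5 loci passed it. The study then dropped loci under 20 RPKM from its final list, so members at low levels could not enter that list. At all 5 loci the ripe Sd libraries were below the PR Sd libraries without overlap. This held for 9 of the 27 members, and in 4 every ripe Sd library was above every PR Sd library, against 15.1% and 16.9% of all loci tested. At an unadjusted p under 0.05 in limma, 9 of the 27 members were lower and 3 were higher in ripe Sd, against 10.1% and 12.5% of all loci tested. The median difference was -0.17 over the members and 0.03 over all loci tested. Without PR Sd replicate 9, the library nearest to ripe Sd, 4 members were called lower, and the difference at LOC105049227 was -3.40 (adjusted p = 0.0023). With 2 members called without PR NSd replicate 3 or without ripe NSd replicate 4, and 0 without any of replicates 2, 5, 6, 7, 8, 10, 11 and 12, the single call at LOC105050826 was not firm. This comparison shares the ripe Sd libraries with that between the ripe palms.

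Between the NSd stages the libraries overlapped at all 5 loci, and none was called. Their log2 differences between ripe NSd and PR NSd were 0.33 ± 0.53 at LOC105049227, 0.07 ± 0.49 at LOC105049189, -0.40 ± 0.51 at LOC105049188, -0.53 ± 0.47 at LOC105050826 and -0.10 ± 0.53 at LOC105037481, with adjusted p of 0.36 to 0.92. The 95% intervals at these loci reached from -1.55 to 1.48. Between the PR palms the 5 loci were 0.57 to 1.38 higher in NSd on the log2 scale, all 5 with overlapping libraries and none called (adjusted p of 0.040 to 0.38).

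Whether the stage change differed between the palms was tested as the change in NSd minus the change in Sd. At LOC105049227 this interaction was 3.14 ± 0.74 on the log2 scale (adjusted p = 0.0074), a call that was lost without any of replicates 1, 2, 3, 5, 6, 7, 8, 11 and 12, at adjusted p of 0.012 to 0.019. The values were 2.73 ± 0.75 at LOC105037481 (adjusted p = 0.015), 2.45 ± 0.69 at LOC105049189 (adjusted p = 0.017), 2.09 ± 0.66 at LOC105050826 (adjusted p = 0.029) and 2.01 ± 0.72 at LOC105049188 (adjusted p = 0.049), none of them calls. Of the 27 members, 3 were called with a positive interaction and 0 with a negative one, against 13.3% of all loci (9.19% positive and 4.07% negative), so the share of members called was near the background. The split over all loci depended on the scaling, and the 3 rescalings gave 4.97% to 7.46% positive and 4.92% to 6.18% negative. At an unadjusted p under 0.05 in limma, 14 of the 27 members had a positive interaction and 3 a negative one, against 35.3% and 10.3% of all loci tested. Of the 3 calls, 1 was kept (LOC105050989) when RPKM were rescaled by the median ratio, by the upper quartile or without rRNA loci. The median interaction over all loci tested was 0.30, and the median ratio brought it to 0.02. Without PR Sd replicate 8, ripe Sd replicate 11 or ripe Sd replicate 12, 0 members were called with a positive interaction, and without any of replicates 1, 2, 5 and 7 a single one was.

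**Figure D3:**
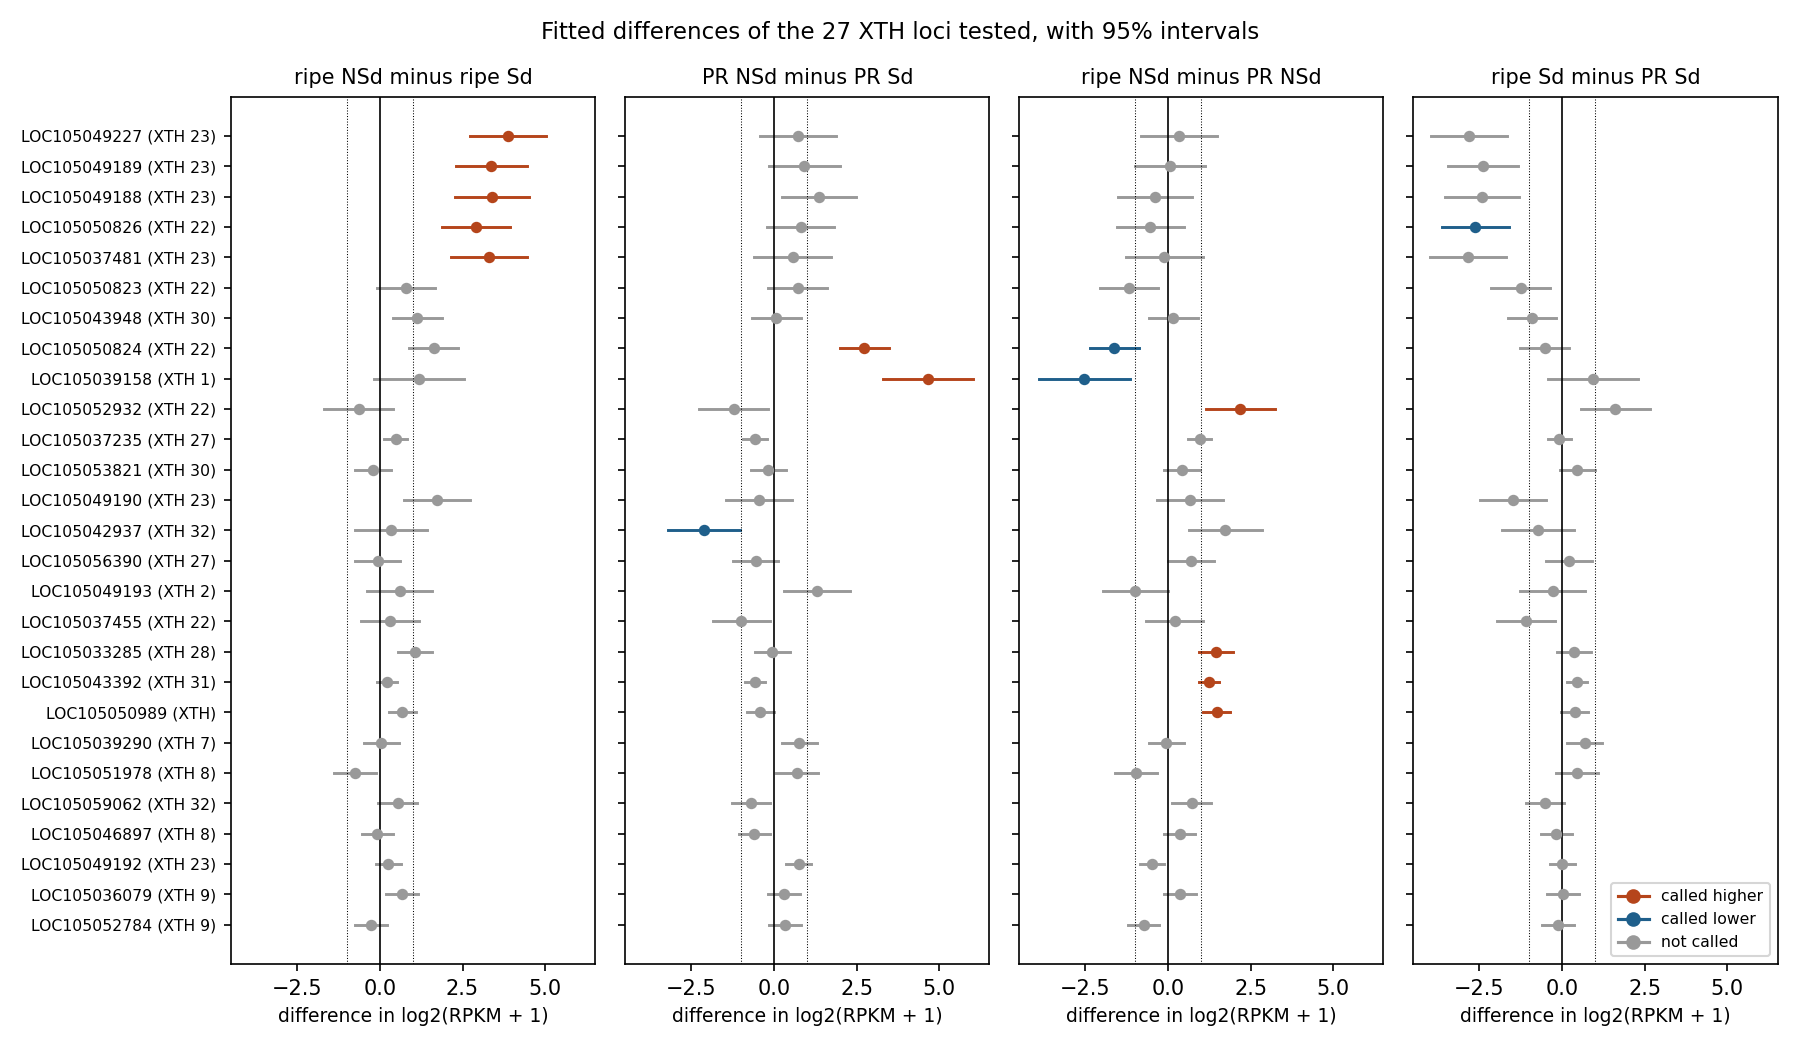
Fitted differences in log2(RPKM + 1) with 95% intervals for the 27 XTH loci tested, in the order of their highest group mean, for the 4 comparisons of groups. Points in red were called higher, in blue lower and in grey not called, and dotted lines mark -1 and 1. The 5 top rows lie at 2.90 to 3.86 between the ripe palms and at -2.38 to -2.83 between the Sd stages.

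Some of the lower members had their highest mean in PR NSd. This was not particular to them, since LOC105049188, LOC105050826 and LOC105037481 among the abundant loci had theirs there too. Those means were 226, 219 and 181 RPKM in PR NSd and 174, 153 and 167 RPKM in ripe NSd, with overlapping libraries. LOC105039158, described as a putative XTH1, had 11.0, 6.80 and 0.486 RPKM in ripe NSd, 0.623, 3.06 and 0.756 RPKM in ripe Sd, 23.2, 23.6 and 42.9 RPKM in PR NSd and 0.221, 0.354 and 0 RPKM in PR Sd. Its PR NSd libraries were all above 20 RPKM, with 540 to 871 reads each, and its PR Sd values rest on 8, 8 and 0 reads. The log2 difference between the PR palms was 4.65 ± 0.62 (adjusted p = 0.00012), the largest of any member, and that between ripe NSd and PR NSd was -2.52 ± 0.62 (adjusted p = 0.0066). The ripe NSd libraries spread widely, and the fall between the NSd stages lost its call without any of replicates 1, 2, 3, 5 and 8, at adjusted p of up to 0.023.

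LOC105050824, an XTH22, had 8.87, 10.8 and 9.12 RPKM in ripe NSd, 1.43, 4.42 and 2.02 RPKM in ripe Sd, 29.4, 46.0 and 22.8 RPKM in PR NSd and 5.32, 4.92 and 2.11 RPKM in PR Sd. NSd libraries were above Sd libraries at both stages without overlap. It rose in PR NSd relative to PR Sd, with a log2 difference of 2.73 ± 0.34 (adjusted p = 7.0e-05), and fell in ripe NSd relative to PR NSd, with one of -1.62 ± 0.34 (adjusted p = 0.0026). Between the ripe palms the difference was 1.63 ± 0.34 (adjusted p = 0.011), not a call. The fall between the NSd stages lost its call without PR NSd replicate 2 (adjusted p = 0.013) or ripe NSd replicate 4 (adjusted p = 0.011).

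LOC105050823, another XTH22, had 13.2, 24.8 and 27.9 RPKM in ripe NSd, 20.03, 12.1 and 6.47 RPKM in ripe Sd, 59.1, 57.6 and 33.4 RPKM in PR NSd and 21.6, 24.2 and 46.9 RPKM in PR Sd. Ripe libraries were below PR libraries in both palms without overlap, with log2 differences of -1.17 ± 0.41 in NSd (adjusted p = 0.033) and -1.25 ± 0.41 in Sd (adjusted p = 0.091), and neither was called. In PR Sd its highest library was replicate 9, the library lowest at the 5 abundant loci.

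Other members were higher in ripe NSd than in PR NSd. LOC105052932, an XTH22, had 23.7, 16.9 and 5.80 RPKM in ripe NSd, 18.4, 38.0 and 13.8 RPKM in ripe Sd, 1.81, 1.94 and 2.81 RPKM in PR NSd and 11.2, 4.97 and 4.36 RPKM in PR Sd. It rose by 2.19 ± 0.47 between the NSd stages (adjusted p = 0.0031), and in both palms every ripe library was above every PR library. The difference between the Sd stages was 1.62 ± 0.47 (adjusted p = 0.063), and the interaction was 0.58 ± 0.67 (adjusted p = 0.53). It thus ran against the 5 abundant loci in Sd, where they were lower in ripe fruit. The rise in NSd lost its call without any of replicates 1, 2, 4 and 5, at adjusted p of 0.012 to 0.015.

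LOC105033285, an XTH28, whose Arabidopsis namesake acts in stamen filament growth, had 7.57, 3.51 and 5.28 RPKM in ripe NSd, 2.84, 2.06 and 1.25 RPKM in ripe Sd, 1.14, 1.21 and 1.47 RPKM in PR NSd and 1.07, 1.41 and 1.54 RPKM in PR Sd. Ripe NSd stood above the other 3 groups without overlap. The log2 difference was 1.46 ± 0.24 between the NSd stages (adjusted p = 0.00053) and 1.07 ± 0.24 between the ripe palms (adjusted p = 0.015), the first of which was a call.

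LOC105043392 is named XTH31, whose Arabidopsis namesake is a xyloglucan hydrolase. It had 2.53, 2.88 and 2.22 RPKM in ripe NSd, 2.11, 2.23 and 1.80 RPKM in ripe Sd, 0.699, 0.327 and 0.460 RPKM in PR NSd and 1.37, 1.16 and 1.12 RPKM in PR Sd. Ripe libraries were above PR libraries in both palms, and the change in NSd was a call (1.25 ± 0.14, adjusted p = 4.7e-05), while that in Sd was 0.46 ± 0.14 (adjusted p = 0.068). The interaction of 0.79 ± 0.20 stayed under the fold limit (adjusted p = 0.0094).

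LOC105050989, described as an XTH with no number, had 2.66, 1.89 and 1.64 RPKM in ripe NSd, 1.14, 0.536 and 1.05 RPKM in ripe Sd, 0, 0 and 0.298 RPKM in PR NSd and 0.334, 0.611 and 0.408 RPKM in PR Sd. The PR NSd values rest on 0, 0 and 7 reads and the ripe NSd values on 39 to 81 reads. It rose between the NSd stages by 1.48 ± 0.19 (adjusted p = 0.00011), and the interaction was 1.09 ± 0.26 (adjusted p = 0.0081). The interaction lost its call without any of replicates 1, 2, 4, 5, 7, 8, 9, 11 and 12, at adjusted p of up to 0.025, while the rise kept it.

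LOC105037235 is named XTH27, whose Arabidopsis namesake acts in the veins of leaves. It had 14.6, 20.4 and 17.1 RPKM in ripe NSd, 14.7, 11.3 and 10.6 RPKM in ripe Sd, 8.16, 9.02 and 7.86 RPKM in PR NSd and 11.5, 15.4 and 11.8 RPKM in PR Sd. PR NSd libraries were below all others. Its interaction of 1.04 ± 0.23 was called (adjusted p = 0.0047), and its difference between the NSd stages was 0.96 ± 0.16 (adjusted p = 0.00064), just under the fold limit. The interaction lost its call under the 3 rescalings and without any of replicates 5, 8, 11 and 12, at adjusted p of 0.013 to 0.050.

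LOC105042937 was the single member that fell in PR NSd relative to PR Sd. Named XTH32, it had 11.1, 7.04 and 4.68 RPKM in ripe NSd, 4.83, 3.53 and 9.19 RPKM in ripe Sd, 0.523, 0.808 and 4.46 RPKM in PR NSd and 14.8, 11.1 and 5.19 RPKM in PR Sd. The PR palms did not overlap, but PR NSd replicate 3 and PR Sd replicate 9 lay close to each other. The log2 difference was -2.10 ± 0.50 (adjusted p = 0.0045), and it was not called with the median ratio rescaling or without any of replicates 1, 2, 7 and 8, at adjusted p of 0.012 to 0.021.

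**Figure D4:**
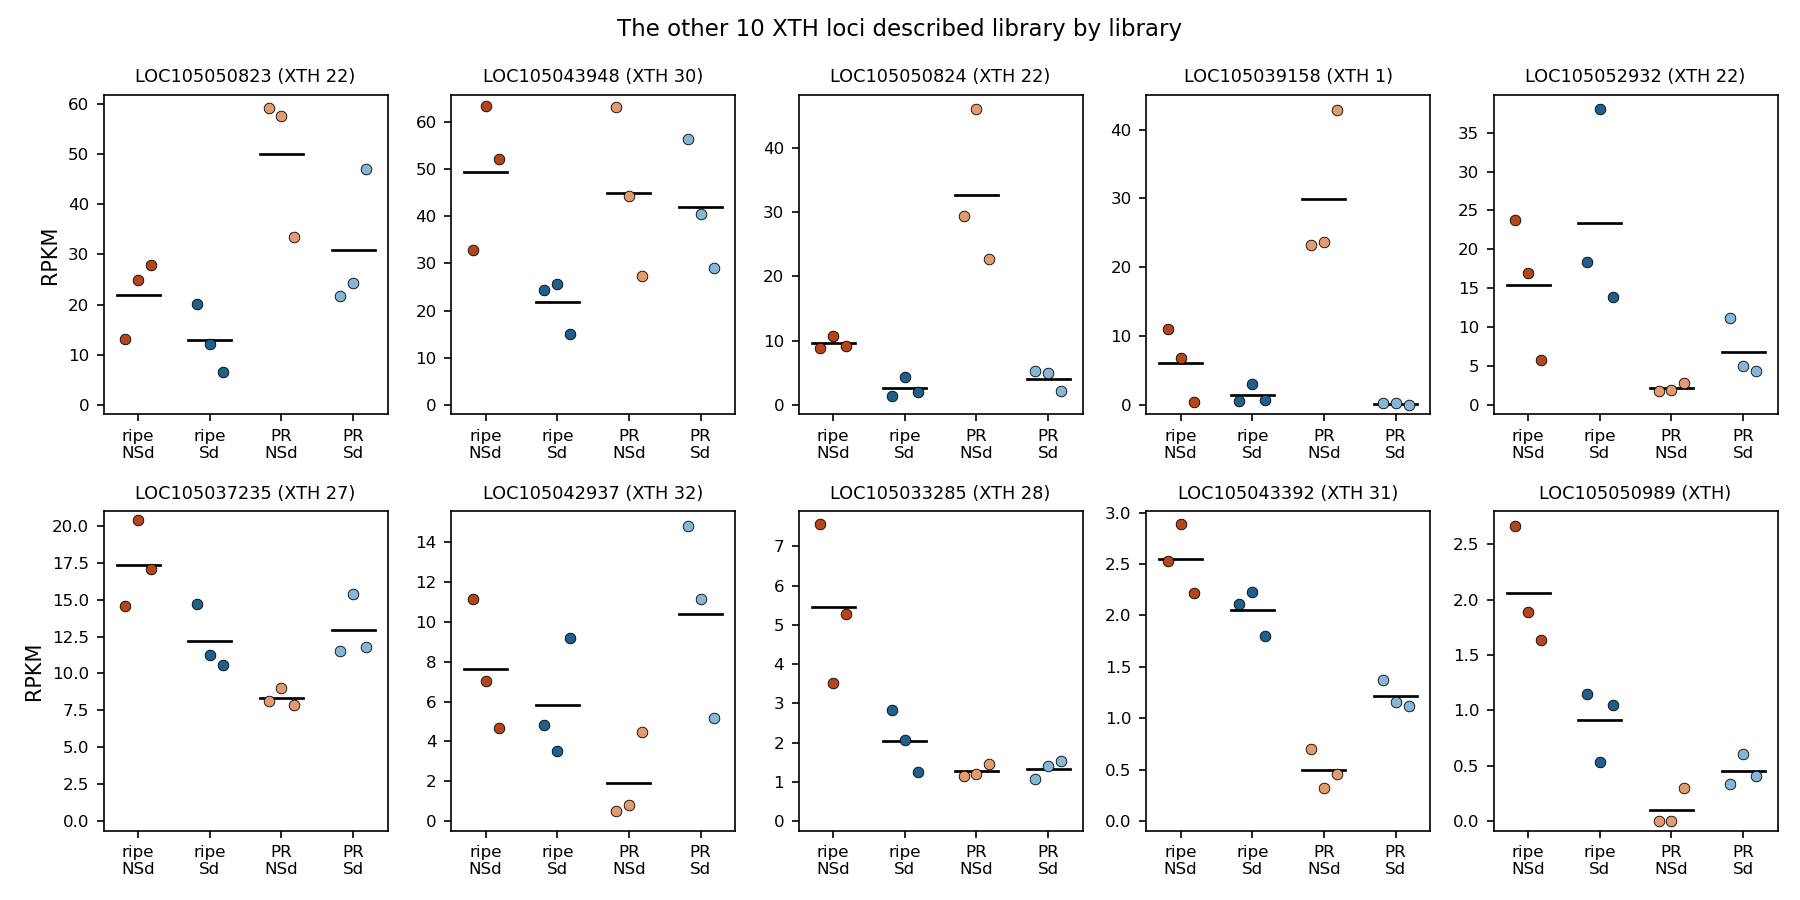
RPKM at the other 10 XTH loci described library by library, each panel on its own linear axis, one point per library and a bar at the mean of each group of 3. LOC105050824 and LOC105039158 had their highest mean in PR NSd, LOC105033285 and LOC105050989 in ripe NSd and LOC105052932 in ripe Sd.

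In all, 3 of the 27 members were called between the PR palms, 2 higher (LOC105039158 and LOC105050824) and 1 lower (LOC105042937) in NSd. Of all loci tested, 12.9% were called there, 3.36% higher and 9.53% lower, so the share of members called was near the background. With the 3 rescalings 4.17% to 5.75% of all loci were called higher and 4.59% to 7.15% lower, against 2 to 3 members higher and 0 to 1 lower. Every PR NSd library was above every PR Sd library in 5 members and below in 7, against 8.85% and 51.5% of all loci. The median was 0.32 over the members and -0.35 over all loci. Between the NSd stages, 4 members rose (LOC105052932, LOC105033285, LOC105043392 and LOC105050989) and 2 fell (LOC105039158 and LOC105050824) in ripe NSd, against 10.8% of all loci called, 7.77% higher and 3.07% lower. With the 3 rescalings 4.38% to 6.38% of all loci were called higher and 3.72% to 5.2% lower, against 4 members higher and 2 to 3 lower. The count of members that fell was 1 without any of replicates 1, 3, 4, 5 and 8 and 0 without PR NSd replicate 2, and the count lower between the PR palms was 0 without any of replicates 1, 2, 7 and 8. Every ripe NSd library was above every PR NSd library in 8 members and below in 6, against 44.6% and 8.58% of all loci. The medians there were 0.20 over the members and 0.31 over all loci. Both comparisons use the 3 PR NSd libraries, the group with the highest mean share of rRNA reads, and the part of rRNA in these differences was not tested beyond the rescalings. The stage changes in NSd and the differences between PR palms therefore share those libraries and are not separate evidence.

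The 8 XTH23 loci were not alike. Besides the 4 abundant ones and LOC105049190, LOC105049192 stayed at or below 1.55 RPKM, with its highest mean in PR NSd, and LOC105039293 and LOC105039407 did not reach 1 RPKM. The 5 XTH22 loci differed among themselves too. LOC105050826 was lowest in ripe Sd without overlap with any other group, LOC105050824 was high in PR NSd, LOC105052932 was higher in the ripe groups, and LOC105037455 had 0.37 times the PR Sd mean in ripe Sd, at 2.10 ± 0.60 RPKM and 5.73 ± 2.27 RPKM (SD, n = 3 each; adjusted p = 0.13). LOC105050825, an XTH25 with an identifier between those of LOC105050824 and LOC105050826, reached at most 0.229 RPKM.

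The remaining 12 members tested were not called in any comparison, with highest group means of 0.817 to 14.4 RPKM. The highest of them, LOC105053821 (XTH30), had 12.5 ± 2.94 RPKM in ripe NSd, 14.4 ± 2.37 RPKM in ripe Sd, 9.30 ± 3.54 RPKM in PR NSd and 10.1 ± 0.259 RPKM in PR Sd (SD, n = 3 each). It thus differed from the XTH30 locus LOC105043948, which was lowest in ripe Sd. LOC105051978 (XTH8) was the single member with every ripe NSd library below every ripe Sd library, at 0.356 ± 0.163 RPKM and 1.26 ± 0.229 RPKM (log2 difference -0.74 ± 0.29, adjusted p = 0.12).

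Enzymes that build and trim xyloglucan were counted by lists of descriptions. Of the 4 loci tested that make the backbone, 0 were called in any comparison or the interaction, where 1.09% to 13.3% of all loci were called. With 4 loci, 0 calls does not set the list apart from all loci. At an unadjusted p under 0.05 in limma, 0 were higher and 1 was lower between the ripe palms, against 10.3% and 18% of all loci. Of the 11 tested that add side chains, the fucosyltransferase LOC105060888 fell in PR NSd, to 1.05 ± 0.158 RPKM against 5.53 ± 0.570 RPKM in PR Sd, with a log2 difference of -1.67 ± 0.17 (adjusted p = 1.5e-05). It stood at 7.05 ± 1.43 RPKM in ripe NSd and 6.02 ± 1.27 RPKM in ripe Sd, and it rose by 1.96 ± 0.17 between the NSd stages (adjusted p = 6.8e-06). LOC105060888 was the only one of the 11 called between the PR palms or between the NSd stages, against 12.9% and 10.8% of all loci. Among the 11, 3 had a called positive interaction and 1 a negative one, against 9.19% and 4.07% of all loci. Of the 3 tested for acetylation, LOC105050308, an ALTERED XYLOGLUCAN 4-like locus, rose in PR NSd, at 1.87 ± 0.664 RPKM against 0.149 ± 0.0518 RPKM in PR Sd (log2 difference 1.29 ± 0.23, adjusted p = 0.00072). It was the only one of the 3 called between the PR palms, where 3.36% of all loci were called higher. Between the ripe palms 0 of the 3 were called, against 2.44% of all loci. At an unadjusted p under 0.05 in limma, 0 were higher and 2 were lower in ripe NSd, against 10.3% and 18% of all loci. The median of the 3 there was -0.61, and that over all loci was -0.06.

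Trimming of side chains was covered by 19 tested loci. Between the ripe palms 1 fell and 0 rose in NSd, against 1.63% and 0.815% of all loci, with a median of -0.38 (-0.06 over all loci). Between the PR palms 8 fell and 0 rose, against 9.53% and 3.36% of all loci, with a median of -0.84 (-0.35 over all loci). The one called between the ripe palms was the beta-galactosidase LOC105040419, at 2.49 ± 0.384 RPKM in ripe NSd and 7.27 ± 2.64 RPKM in ripe Sd (log2 difference -1.19 ± 0.23, adjusted p = 0.0077). Between the PR palms the beta-galactosidases LOC105036469, LOC105056588 and LOC105037786 fell in NSd, with log2 differences of -1.15 ± 0.20, -1.59 ± 0.22 and -1.12 ± 0.15 (adjusted p of 0.00014 to 0.00072). LOC105037786, the most abundant of them, had 19.6 ± 1.17 RPKM in PR NSd and 43.7 ± 2.78 RPKM in PR Sd, and 44.1 ± 10.3 RPKM in ripe NSd and 62.5 ± 6.96 RPKM in ripe Sd. The list counts beta-galactosidases of any substrate. Between the NSd stages 6 of the 19 rose and 0 fell, against 7.77% and 3.07% of all loci. With the 3 rescalings 4.59% to 7.15% of all loci were called lower between the PR palms. Between the NSd stages 4.38% to 6.38% were called higher with them. Counts of the trimming loci with the rescalings are not given, so the part of scaling in these counts is not known.

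For other wall and growth families, 4 of the 10 EXORDIUM loci tested were called higher and 1 lower in ripe NSd than in ripe Sd. Of the 20 expansin loci tested 0 were called higher and 1 lower. The shares of all loci called were 0.815% higher and 1.63% lower. At an unadjusted p under 0.05 in limma, 7 EXORDIUM loci were higher and 2 lower, and 8 expansin loci were higher and 1 lower. By that rule 10.3% of all loci were higher and 18% lower. The median difference was 1.52 over the EXORDIUM loci and 0.43 over the expansin loci, against -0.06 over all loci. EXORDIUM genes respond to brassinosteroid in Arabidopsis, and expansins loosen walls without cutting polymers.

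Loci listed for other tissues by words in their descriptions were summed to describe the samples. Whether they are restricted to those tissues was not checked, so a high sum does not show that tissue. The seed list, for one, holds every locus described as late embryogenesis abundant. Fewer cells of a type and less RNA per cell cannot be told apart in these sums. Fatty acid synthesis loci, listed for the mesocarp (27 of 39 reached 1 RPKM, 2 at 0 in all libraries), summed to 2707 to 3942 RPKM in ripe NSd, 1471 to 2469.9 RPKM in ripe Sd, 2044 to 2260.2 RPKM in PR NSd and 2733 to 2890.0 RPKM in PR Sd. They separated the ripe palms in the direction of the 5 XTH loci. Between the Sd stages they were lower in ripe Sd without overlap, also in the direction of the 5 XTH loci. Between the NSd stages they were higher in ripe NSd without overlap, where the libraries overlapped at the 5 XTH loci. Between the PR palms they were lower in NSd without overlap, where the 5 XTH loci were higher in NSd with overlap. Photosynthesis loci (14 of 22 reached 1 RPKM) summed to 79.3 to 91.5 RPKM in ripe NSd and 108 to 189 RPKM in ripe Sd, and to 30.4 to 44.3 RPKM in PR NSd and 71.1 to 93.3 RPKM in PR Sd. They were thus lower in NSd at both stages without overlap, against the direction of the 5 XTH loci. Between the Sd stages the photosynthesis loci were higher in ripe Sd without overlap, where the 5 XTH loci were lower. Lignification loci (40 of 74, 6 at 0) summed to 412 to 542 RPKM in ripe NSd and 404 to 468 RPKM in ripe Sd, and to 265 to 368 RPKM in PR NSd and 409.8 to 431 RPKM in PR Sd. Seed loci (12 of 35, 7 at 0) summed to 6752 to 8033 RPKM in ripe NSd and 5423 to 7296 RPKM in ripe Sd, and to 8819 to 10413 RPKM in PR NSd and 6863 to 9684 RPKM in PR Sd, with overlap of the palms at both stages. The part of tissue makeup in the XTH differences was not tested.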

How the data were processed

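RNA was sequenced from 12 AZ samples, 3 in each of 4 groups. The authors trimmed reads with bcl2fastq 2.20.0.422, aligned them with BWA-MEM at default settings to the E. guineensis transcriptome, counted alignments with SAMtools, merged the transcripts of a locus and deposited RPKM for 29040 loci per library. The samples' record also names FastQC and HOMER among further tools. Reads of E. oleifera were thus placed on another species' transcripts, and reads shared by near-identical members may sit on either copy.

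RPKM were analysed as log2(RPKM + 1) with limma 3.58.1 (R 4.3.3), a mean-variance trend and 1 mean per group over all 12 libraries. P-values were Benjamini-Hochberg adjusted over the 20495 loci at or above 1 RPKM in any library. The family sum was compared by an exact permutation test. Aligned reads and transcript lengths were recovered from the steps between RPKM values (relative tolerance 1e-09), for 34 of the 39 members and 64.0% of the 26627 detected loci, so RPKM stayed the tested unit. Shares of rRNA reads cover 76 of 109 rRNA loci and are lower bounds. The fit was tested on simulated data.

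Described library by library were the 5 loci that the study names, every other member called in at least 1 comparison or the interaction, and every member with a group mean of at least 20 RPKM (15 in all). In the pathway lists, up to 4 called loci a list were named by smallest p between the ripe palms. Members and lists were chosen with earlier results of these data known. Sequences, genome positions and protein identity were not analysed here. Tables and plots used Python 3.11.15, numpy 2.4.6, pandas 2.3.3 and matplotlib 3.10.9. The alternatives tried are given with their effects.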

Additional observations from a re-analysis of the deposited data

Results flagged for a closer look

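Among the members and loci named in the text, 5 had a called interaction in limma, a stage change that was not the same in both palms. At LOC105049227 (XTH23) the interaction, the log2 change in NSd minus that in Sd, was 3.14 (adjusted p = 0.0074). Ripe NSd averaged 1521 RPKM and PR NSd 1211 RPKM there, and ripe Sd averaged 107 RPKM and PR Sd 873 RPKM. At LOC105050989 (XTH) it was 1.09 (adjusted p = 0.0081), and at LOC105037235 (XTH27) it was 1.04 (adjusted p = 0.0047), with the lowest level of both in PR NSd. The fucosyltransferase LOC105060888 had an interaction of 1.87 (adjusted p = 0.00021), with its lowest level in PR NSd. LOC105050308 (ALTERED XYLOGLUCAN 4-like) had one of -1.90 (adjusted p = 0.0011), and its PR Sd libraries lay below all others. Over all loci tested 13.3% had a called interaction. Groups of 3 libraries were not searched for single outlying samples.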

How the results depend on the processing

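Of 18 called values at the 15 members described in full, 6 were called under every alternative run and 12 lost their call under at least 1, while none of the called values changed sign. The 6 are the differences between the ripe palms at LOC105049227, between the PR palms at LOC105039158 and LOC105050824, and between the NSd stages at LOC105033285, LOC105043392 and LOC105050989. Leaving out each library in turn gave 1 to 6 members higher and 0 lower between the ripe palms, 2 to 3 higher and 0 to 1 lower between the PR palms, 0 higher and 0 to 4 lower between the Sd stages, 3 to 5 higher and 0 to 2 lower between the NSd stages, and 0 to 4 positive and 0 to 1 negative interactions. With an adjusted p under 0.05 and no limit on the fold change, 9 were higher between the ripe palms, 6 were higher and 6 lower between the PR palms, 5 were lower between the Sd stages, 7 were higher and 6 lower between the NSd stages, and 12 interactions were positive and 2 negative. By that rule 4.09% of all loci were higher between the ripe palms, 8.29% higher and 44.3% lower between the PR palms, 3.25% lower between the Sd stages, and 39.2% higher and 7.77% lower between the NSd stages, and 26.9% of interactions were positive and 7.85% negative. Between the PR palms, 0 were lower with the median ratio rescaling or with only the compared groups in the fit, and 2 with a pseudocount of 0.1. Between the Sd stages, 0 were lower when low loci were not filtered out, when the fit held just the compared groups, with each of the 3 rescalings and with robust moderation. Between the NSd stages, 1 was lower with no filter, a pseudocount of 0.1, only the compared groups or robust moderation. Each of the 3 rescalings left 1 positive interaction and gave 1 negative one. Summing members with the same name, an alternative chosen after seeing the data, gave 1 higher between the ripe palms, 1 higher between the PR palms, 0 lower between the Sd stages, 1 lower between the NSd stages and 1 positive interaction, out of fewer rows. The cause of these changes was not tested.

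The family sum was 2.78 to 3.43 higher between the ripe palms without 1 library, 0.34 to 1.25 higher between the PR palms, -2.67 to -1.77 between the Sd stages and -0.25 to 0.42 between the NSd stages. That last difference was -0.27 with the median ratio, -0.20 with the upper quartile and -0.045 without rRNA loci in the totals. Exact tests of 3 libraries against 3 cannot go below p = 0.10. The alternative of summing members with near-identical proteins was not run, since no sequences were at hand. No paired analysis was possible because the groups share no replicate numbers. Members near 1 RPKM rest on few reads, and differences between them are not firm at this depth.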
